A study of Mus musculus with 2 samples.

Results

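Immediate early, NF-kB and heat shock response genes were described in myeloid cells of a malignant pleural effusion, a fluid that gathers around the lung when tumour cells grow in the pleural cavity. The 40 genes were taken as a list of symbols, and all 40 of them were found among the 27998 genes listed in both libraries. The group was mice given 150000 tumour cells of the Lewis lung carcinoma line LLC, injected in a volume of 100 µl into the pleural space, with fluid collected on day 10. Strain, sex and age are not stated in the labels, no tumour-free or untreated mice are part of the group, and the labels do not say whether 1 or several mice went into a library. Live CD45+ CD11b+ single cells, which are leukocytes of mainly myeloid type, were sorted after 5 min of red cell lysis and 20 min of antibody staining on ice, and droplet libraries of the 3' ends of transcripts were made. A unique molecular identifier (UMI) marks each RNA molecule, so the values are molecules counted per gene and cell.

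Immediate early genes are switched on within minutes of a stimulus without new protein synthesis, through factors such as SRF, CREB and AP-1 that are already in the cell. Several of them encode transcription factors (Fos and Jun proteins pair to form AP-1, and the Egr proteins are zinc finger factors), and others encode the phosphatases and RNA decay proteins that shut the response off. NF-kB is held in the cytoplasm by inhibitors such as the product of Nfkbia, and on release it activates genes of inflammation, among them its own inhibitors. Heat shock genes encode chaperones that refold proteins. In myeloid cells these programmes follow from inflammatory signals, and they are also known to respond to cell handling such as lysis, staining and sorting. No sample without that handling is part of the group, so a response in the fluid and a response to handling cannot be told apart here.

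Library 1 held 1141 cell barcodes with 11543829 UMIs and library 2 held 2908 with 20322996 UMIs, of which 1106 and 2782 cells were kept, and 4 barcode sequences occurred in both libraries. Cells were assigned to classes by marker genes that include none of the 40. In libraries 1 and 2 this gave 83 and 1503 neutrophil-like cells, 85 and 269 monocyte-like cells, 122 and 432 Vcan F13a1 macrophage-like cells, 142 and 69 Folr2 Cd163 macrophage-like cells, 25 and 22 resident macrophage-like cells and 143 and 43 dendritic-like cells. Vcan F13a1 macrophage-like cells carried C1q genes of macrophages together with monocyte genes. Folr2 Cd163 macrophage-like cells carried the scavenger receptor Cd163 and the folate receptor Folr2, and resident macrophage-like cells carried Alox15 and Prg4. Dendritic-like cells carried H2-DMb2 and Mgl2 together with Ccr7 and Fscn1, all from the list of their gate. Neutrophil-like cells were shallow, with a median of 2191 and 1312 UMIs against 8517 to 20080 in the other 5 classes. Ptprc (CD45) and Itgam (CD11b), the genes of the sorted proteins, were detected in every class. Neutrophil markers summed to 194539 and 150772 CPM, counts scaled to a total of 1000000 UMIs, in neutrophil-like cells and to between 822 and 2632 CPM in the other 5 classes. The classes of macrophages did not form the same clusters in both libraries. When cells were clustered within each library, Folr2 Cd163 macrophage-like cells of library 1 lay mainly in clusters classed as Folr2 Cd163 macrophage-like (42, 39 and 35 of 142 cells), whereas all 69 of library 2 lay in clusters classed as Vcan F13a1 macrophage-like, a class that 0 cells of library 1 had by cluster. The lowest deposited barcode had 1999 UMIs in library 1 and 500 in library 2.

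The promoters of 4 members that were higher in neutrophil-like cells below are shown because each holds a recognised element of these responses. They are the 250 bases before the RefSeq start (build GRCm38.p6), written along the gene's strand with the element in capitals. Nfkbia (chr12:55492648-55492897, minus strand), the NF-kB inhibitor, holds a kB site 29 bases before the start. Zfp36 (chr7:28379229-28379478, minus strand), an RNA decay factor, holds a CArG box, the element that SRF binds, 58 bases before it. Btg2 (chr1:134079156-134079405, minus strand), an antiproliferative early gene, holds a CRE, the element that CREB binds, 166 bases before it. Csrnp1 (chr9:119983024-119983273, minus strand), a nuclear protein of the early response, holds an AP-1 site at 2 places, the nearer 14 bases before it.
Nfkbia: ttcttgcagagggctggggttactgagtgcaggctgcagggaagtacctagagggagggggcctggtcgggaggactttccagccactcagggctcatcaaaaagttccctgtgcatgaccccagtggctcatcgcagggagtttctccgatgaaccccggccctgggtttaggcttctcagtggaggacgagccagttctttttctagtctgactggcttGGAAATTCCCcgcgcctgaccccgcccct
Zfp36: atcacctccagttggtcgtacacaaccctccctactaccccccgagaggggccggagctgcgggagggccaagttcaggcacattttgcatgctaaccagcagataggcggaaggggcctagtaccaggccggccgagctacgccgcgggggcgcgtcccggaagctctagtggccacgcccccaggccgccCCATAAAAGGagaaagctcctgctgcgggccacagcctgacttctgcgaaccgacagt
Btg2: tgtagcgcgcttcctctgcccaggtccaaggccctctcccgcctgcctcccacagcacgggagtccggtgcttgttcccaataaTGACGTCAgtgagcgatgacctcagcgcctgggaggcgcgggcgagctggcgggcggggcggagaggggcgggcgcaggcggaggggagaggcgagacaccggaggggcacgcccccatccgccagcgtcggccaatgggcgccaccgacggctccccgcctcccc
Csrnp1: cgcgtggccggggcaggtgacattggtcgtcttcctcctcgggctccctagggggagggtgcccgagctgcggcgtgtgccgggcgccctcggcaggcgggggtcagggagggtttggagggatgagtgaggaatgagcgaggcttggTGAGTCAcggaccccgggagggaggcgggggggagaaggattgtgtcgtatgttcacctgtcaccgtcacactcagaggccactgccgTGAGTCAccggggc

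Windows of 250 bases before and 50 after the start were found for 32 of the 40 genes. Only the 250 bases before the start were searched, on both strands. A gene was counted if any of its windows held the letters, whereas the shares of all windows are per window. A kB site stood in 9 of the 32 (Fos, Fosb, Fosl2, Ier3, Nfkb2, Nfkbia, Nfkbid, Rel and Tnfaip3), against 3.90% of all 32851 windows. An AP-1 site (TGANTCA) stood in 4, against 6.75% of all windows. A CRE (TGACGTCA) stood in 3, against 1.55%, and a CArG box in 3, against 1.47%. A heat shock element (0.466% of all windows) and an Egr site (GCGTGGGCG, 0.536%) stood in 0 of the 32. The searches can overlap, a match is a description of the letters, and no match says only that these letters are not in the 250 bases searched.

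Neutrophil-like cells carried the highest summed level of the 40 genes in both libraries. Together the 40 genes made up 1.497% and 3.02% of all UMIs of neutrophil-like cells in libraries 1 and 2. In the other 5 classes the share lay between 0.566% and 1.15%. Of the 40 genes, 22 had a higher CPM in neutrophil-like cells than in each of the other 5 classes in both libraries, and 2, Hspa8 and Myc, had a lower one. These counts were not made over all genes, so they have no background and do not set the 40 genes apart. Since 3' UMIs count molecules, CPM is not divided by transcript length. Junb, which encodes an AP-1 subunit, stood at 2292 and 4052 CPM in neutrophil-like cells, and Btg1, an antiproliferative gene, at 2772 and 4954 CPM. Hspa8, which encodes the constitutive chaperone Hsc70, was the member of highest level in monocyte-like cells, at 2237 and 3110.4 CPM. Klf2, a transcription factor of quiescent myeloid and endothelial cells, stood at 2459 and 1298 CPM in resident macrophage-like and 1277 and 2357 CPM in neutrophil-like cells, so that the order of these 2 classes differed between the libraries. At the other end, Egr3 had 1 UMI in library 1 and 0 in library 2 over all barcodes.

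**Figure D1:**
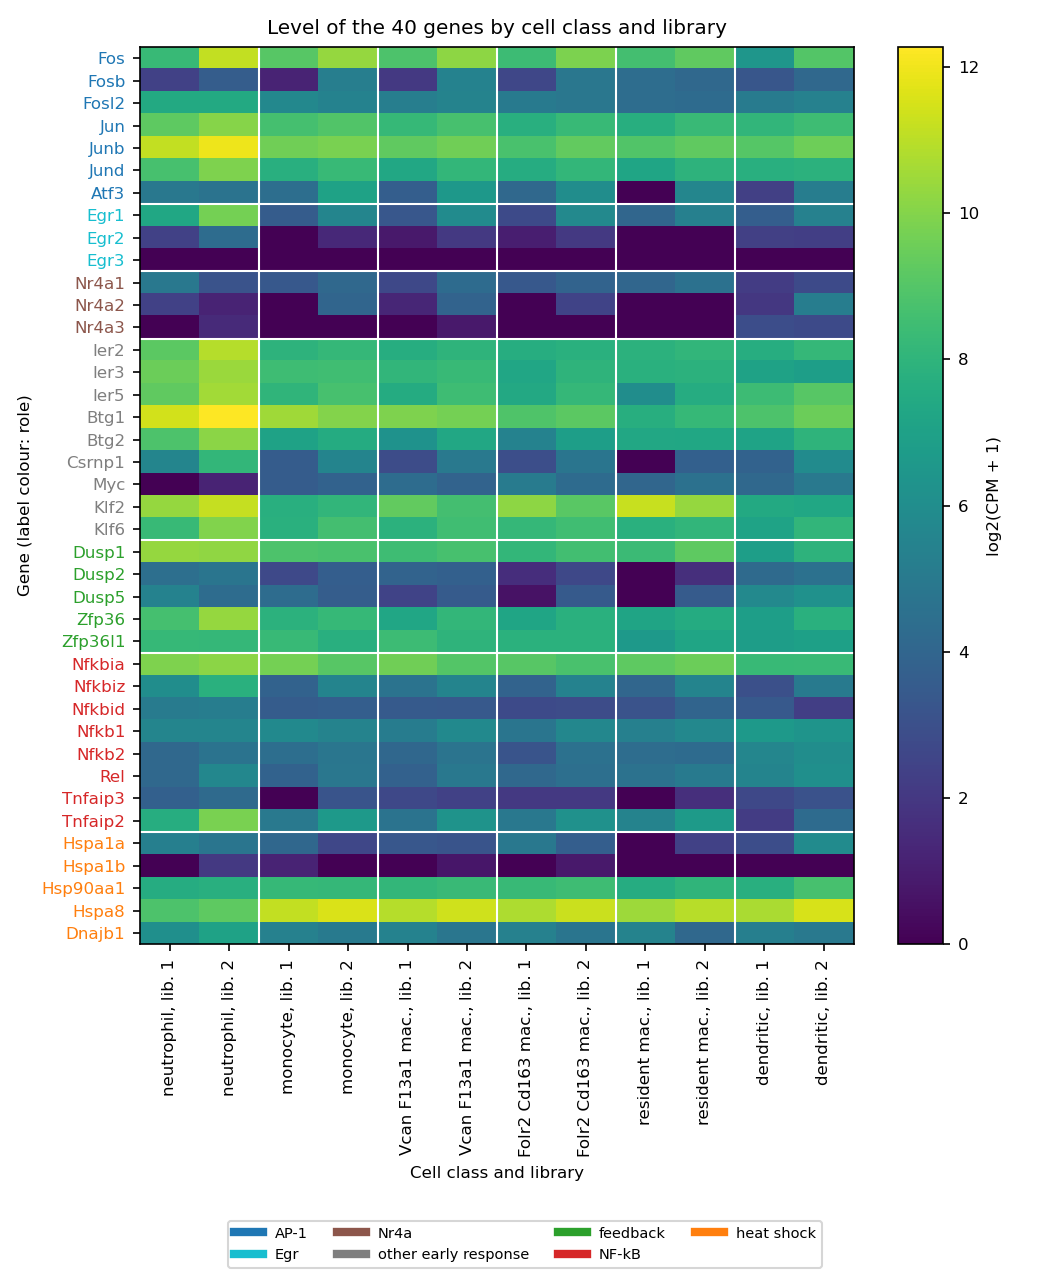
Heat map of the level of each of the 40 genes (rows, grouped and coloured by role) in 6 cell classes and 2 libraries (columns), as log2 of CPM plus 1. The 2 neutrophil columns are brightest for most early response and NF-kB genes, while Hspa8 is darkest there, at 463 and 597 CPM.

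The comparison of neutrophil-like with Folr2 Cd163 macrophage-like cells asked which of the genes differed between the granulocytes and the macrophages of the effusion. Of the genes tested, 4 of 7 AP-1 genes, Egr1, 8 of 9 other early genes, 5 of 5 feedback genes and 8 of 8 NF-kB genes were higher in neutrophil-like cells, and Hspa8 and Myc were lower. In edgeR's quasi-likelihood test with Benjamini-Hochberg adjustment over all genes, 36 of the 40 genes passed the filter on low counts. Fold changes use TMM factors, which rescale each class's total to offset a few dominant transcripts, so they differ from ratios of the CPM values printed beside them. Of these 36, 27 were higher and 2 lower, beside 54.5% of all 8844 tested genes called, 27.3% higher and 27.1% lower. The median log2 fold change was 2.36 over the 36 genes and -0.09 over all genes tested. With TMM factors, all 29 differences had the same direction in each library alone. In CPM, Nfkb1 in library 2 and Rel in library 1 were not higher in neutrophil-like cells, as given below. Egr2, Egr3, Nr4a3 and Hspa1b failed the filter.

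Among the AP-1 subunits, Junb, Fosl2, Jun and Jund passed. Junb stood at 2292 and 4052 CPM in neutrophil-like and 431 and 636 CPM in Folr2 Cd163 macrophage-like cells of libraries 1 and 2. Both neutrophil-like values lay above both others (log2 fold change 3.16 ± 0.24, adjusted p = 1.71e-09, edgeR, n = 2 libraries). Fosl2, a Fos-related subunit, stood at 173 and 172 against 32.0 and 28.5 CPM (log2 fold change 3.12 ± 0.24, adjusted p = 2.07e-09, edgeR). Jun and Jund had log2 fold changes of 2.26 and 2.13. Fos did not pass, at 308 and 2282 against 336 and 926 CPM (log2 fold change 1.41 ± 0.57, adjusted p = 0.0758, edgeR). In library 1 the Fos levels of the classes were close, and in library 2 neutrophil-like cells had the higher one. Atf3, an AP-1-related stress factor, and Fosb did not pass either.

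Egr1 had the largest log2 fold change of the members in this comparison. It stood at 160.1 and 849 CPM in neutrophil-like and 5.67 and 53.1 CPM in Folr2 Cd163 macrophage-like cells (log2 fold change 4.86 ± 0.29, adjusted p = 3.53e-11, edgeR). The lower neutrophil-like value, of library 1, was above the higher macrophage value, of library 2. Egr2, which was not tested, had 1 and 43 UMIs in neutrophil-like cells and 2 and 4 in Folr2 Cd163 macrophage-like cells. The orphan nuclear receptors Nr4a1 and Nr4a2 did not pass. Nr4a1 stood at 29.5 and 7.93 against 9.28 and 13.8 CPM. Nr4a2 rested on 1 and 3 UMIs in neutrophil-like cells and 0 and 6 in the other class.

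All 9 of the other early genes passed, 8 higher and 1 lower. Btg2 stood at 463 and 1140.3 against 42.8 and 118 CPM (log2 fold change 3.98 ± 0.31, adjusted p = 2.05e-08, edgeR). Csrnp1 stood at 46.3 and 279 against 6.70 and 26.2 CPM (log2 fold change 3.95 ± 0.29, adjusted p = 1.28e-09, edgeR). For both genes the groups did not overlap. Their promoters above hold a CRE (Btg2) and a pair of AP-1 sites (Csrnp1), and a link of these elements to the levels was not tested. Btg1 stood at 2772 and 4954 against 471 and 583 CPM (log2 fold change 3.47 ± 0.34, adjusted p = 1.73e-06, edgeR). Ier2, a short-lived nuclear protein, stood at 577 and 1921 against 199 and 218 CPM (log2 fold change 3.12 ± 0.45, adjusted p = 0.000394, edgeR). Ier3, Ier5 and Klf2 had log2 fold changes of 3.01, 2.79 and 1.82, and Klf6 stood at 303 and 984 against 288 and 362 CPM. Klf2 was close to the macrophage level in library 1, at 1277 and 2357 against 1157 and 559 CPM, with an adjusted p of 0.0352 (edgeR). Myc, a growth-promoting transcription factor, had 0 and 3 UMIs in neutrophil-like cells and 66 and 24 in Folr2 Cd163 macrophage-like cells. Summed over the libraries its level was 0.043 times that of the macrophages (95% counting interval 0.009 to 0.130).

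All 5 feedback genes passed, each higher in neutrophil-like cells. Dusp2, a phosphatase that switches off MAP kinases in immune cells, stood at 21.1 and 26.0 against 2.06 and 5.39 CPM (log2 fold change 3.40 ± 0.46, adjusted p = 4.13e-06, edgeR). Dusp1, the broadly expressed phosphatase of the same family, stood at 1289 and 1190.5 against 282 and 372 CPM, with a log2 fold change of 2.51. Dusp5, which acts on ERK, stood at 42.1 and 19.4 against 0.515 and 10.00 CPM, so that the libraries differed widely in the size of the difference. Zfp36 encodes tristetraprolin, which removes cytokine mRNAs, and it had a log2 fold change of 2.73. Its relative Zfp36l1 had the smallest one of the group, 0.97.

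All 8 NF-kB genes passed, each higher in neutrophil-like cells. Tnfaip2, a target induced by TNF, stood at 198 and 884 against 29.4 and 72.3 CPM (log2 fold change 3.89 ± 0.27, adjusted p = 4.85e-10, edgeR). Nfkbid and Nfkbiz, nuclear IkB proteins that modify NF-kB at its targets, stood at 33.7 and 36.1 against 5.67 and 6.15 CPM and at 63.2 and 222 against 13.9 and 43.1 CPM. Their log2 fold changes were 3.25 and 3.02. Tnfaip3 encodes A20, which ends NF-kB signalling, and had a log2 fold change of 2.91 on 3 and 41 UMIs in neutrophil-like cells. Nfkbia stood at 961 and 1133 against 535 and 435 CPM (log2 fold change 1.74 ± 0.27, adjusted p = 4.65e-05, edgeR). The subunit genes had log2 fold changes of 1.59 for Rel, 1.18 for Nfkb2 and 0.96 for Nfkb1. In CPM, which uses no TMM factors, Nfkb1 stood at 46.3 and 47.1 against 26.3 and 50.01 and was not higher in library 2. Nfkb2 stood at 16.9 and 24.7 against 8.25 and 23.1 CPM and Rel at 16.9 and 49.8 against 17.01 and 21.5 CPM, so that Nfkb2 was close in library 2 and Rel in library 1.

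Of the 4 heat shock genes tested, 1 was higher, 1 was lower and 2 did not pass. Dnajb1, a co-chaperone of Hsp70, stood at 67.4 and 133 against 41.8 and 26.2 CPM (log2 fold change 2.47 ± 0.38, adjusted p = 8.31e-05, edgeR). Hspa8 stood at 463 and 597 against 1744 and 2523 CPM (log2 fold change -1.41 ± 0.20, adjusted p = 6.06e-06, edgeR). Both neutrophil-like values of Hspa8 lay below both macrophage values. Hsp90aa1, the inducible Hsp90, and Hspa1a, an inducible Hsp70, had log2 fold changes of -0.10 and 1.07.

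**Figure D2:**
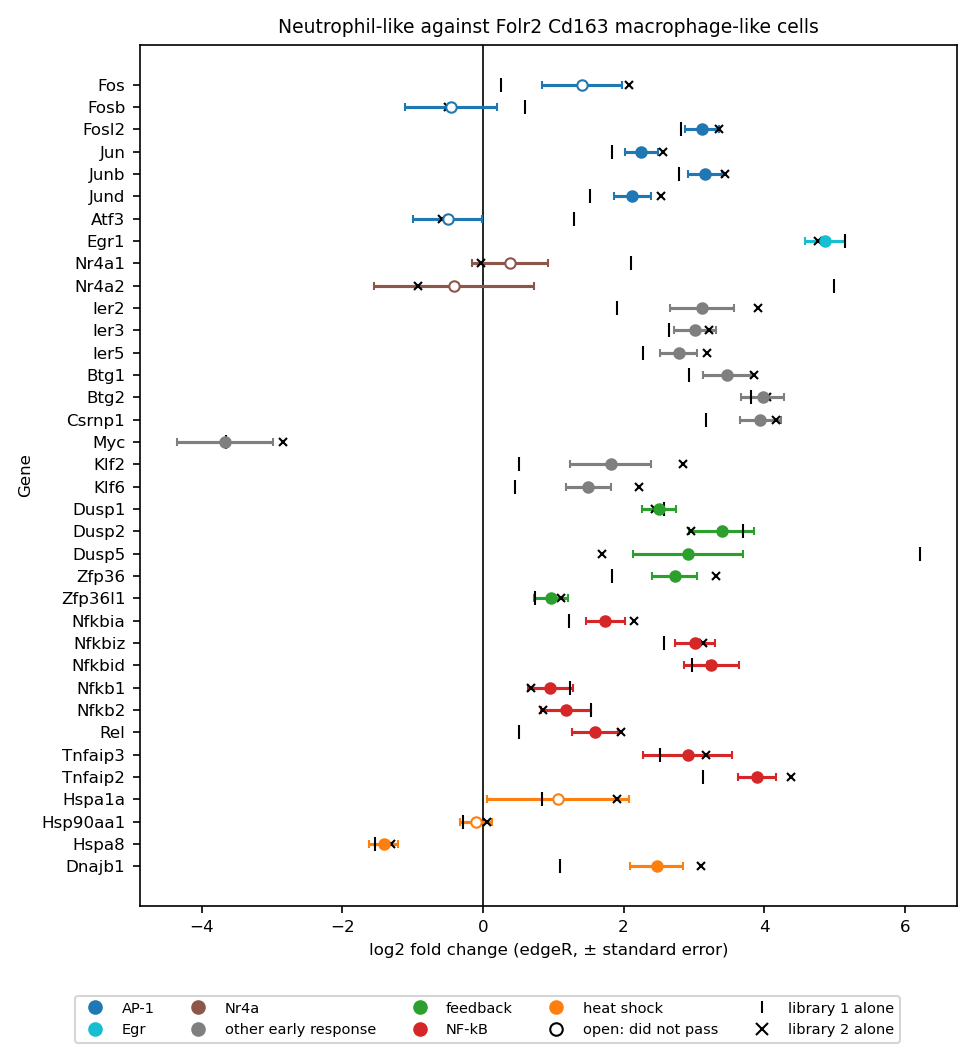
log2 fold change (x axis, edgeR, bars are standard errors) of the 36 tested genes (y axis) between neutrophil-like and Folr2 Cd163 macrophage-like cells, coloured by role, with filled points for an adjusted p under 0.05 and black marks for each library alone. Most filled points lie to the right of 0, from 0.96 for Nfkb1 to 4.86 for Egr1, and Myc and Hspa8 lie to the left.

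Other genes of the same pathways, taken from lists of their members, were counted in the same test. Of 20 other early response genes tested, 16 were higher and 0 lower. They were led by Gadd45a, a growth arrest gene (291 and 621 against 7.22 and 5.39 CPM, log2 fold change 6.66), Gadd45b (4.29) and the cytokine signalling inhibitor Socs3 (3.74). Of 28 other NF-kB genes, 14 were higher and 3 lower. They were led by the inflammatory cytokine Il1b (2001 and 5007 against 31.4 and 173 CPM, log2 fold change 5.91), the prostaglandin enzyme Ptgs2 (4.75) and the chemokine Cxcl2 (3.93). The 3 lower NF-kB genes were Ikbke, Bcl2a1b and Sod2. Of 16 other heat shock genes, 1 was higher (Dnajb6) and 10 were lower. These included Hsp90ab1, the constitutive Hsp90, at 169 and 59.5 against 720.1 and 779 CPM (log2 fold change -2.40), Chordc1 (-3.12) and Hsf2, which had 1 UMI in all in neutrophil-like cells.

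Neutrophil markers take up much of the RNA of neutrophil-like cells, and with counts scaled by library totals alone in place of TMM factors the median of all genes moved from -0.09 to -0.78, 23 of the 36 genes were higher and 3 lower, and 16.7% of all genes were higher and 44.9% lower. P-values rest on 2 libraries that the labels do not describe as separate animals. With the library as a block, a shift shared by all classes of a library is taken out. What the p-values measure is how far the classes differ unequally in the 2 libraries, over all classes in the fit, which may be technical.

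Set against monocyte-like cells, neutrophil-like cells again carried higher levels of most early and NF-kB genes. This comparison uses the same neutrophil-like cells as the one above. Of the 36 tested genes, 24 were higher and 4 lower, beside 49.3% of all genes called, 25.3% higher and 24% lower (edgeR). With library totals alone, 23 were higher and 5 lower, beside 14.5% and 43.1% of all genes. The higher genes were Egr1, Tnfaip2, Klf2, Csrnp1, Nfkbiz, Btg2, Ier2, Fosl2, Junb, Dnajb1, Nfkbid, Ier5, Btg1, Zfp36, Tnfaip3, Ier3, Dusp1, Jund, Dusp2, Klf6, Rel, Jun, Nfkbia and Zfp36l1. The 4 lower genes were Myc, Nr4a2, Hspa8 and Atf3.

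Egr1 stood at 160.1 and 849 CPM in neutrophil-like and 10.9 and 47.1 CPM in monocyte-like cells (log2 fold change 4.74 ± 0.30, adjusted p = 1.28e-10, edgeR). Klf2 stood at 1277 and 2357 against 212 and 270.2 CPM (log2 fold change 3.56 ± 0.61, adjusted p = 0.00318, edgeR), so that both neutrophil-like values lay well above both monocyte-like values. Hspa8 stood at 463 and 597 against 2237 and 3110.4 CPM (log2 fold change -1.77 ± 0.20, adjusted p = 6.33e-07, edgeR). Tnfaip2 stood at 198 and 884 against 30.04 and 96.9 CPM, with a log2 fold change of 3.65. For Hspa8 and Tnfaip2 the groups did not overlap. Csrnp1 stood at 46.3 and 279 against 10.9 and 44.8 CPM (log2 fold change 3.21), and Nfkbiz at 63.2 and 222 against 13.7 and 44.8 CPM (2.94). Btg2 stood at 463 and 1140.3 against 132 and 186 CPM (2.85) and Ier2 at 577 and 1921 against 244 and 292 CPM (2.76). Fosl2, Junb, Dnajb1 and Nfkbid had log2 fold changes of 2.52, 2.47, 2.35 and 2.28. In monocyte-like cells they stood at 51.9 and 42.4 CPM, 773 and 883 CPM, 41.0 and 32.6 CPM and 10.9 and 11.8 CPM in the same order. Myc had 3 UMIs in all in neutrophil-like and 48 in monocyte-like cells, a level 0.092 times as high (95% counting interval 0.018 to 0.286).

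Fos did not pass, at 308 and 2282 against 546 and 1301 CPM (log2 fold change 0.79 ± 0.56, adjusted p = 0.295, edgeR). Atf3 stood at 29.5 and 24.7 against 20.5 and 136 CPM, lower in library 2 and higher in library 1. Nr4a2 had 1 and 3 UMIs against 0 and 45, and its direction likewise differed between the libraries. Neither of these 2 passed in DESeq2, with adjusted p = 0.731 for Atf3 and 0.743 for Nr4a2.

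Of the pathway lists in this comparison, 17 of 20 other early response genes were higher and 0 lower, led by Gadd45a and Gadd45b. Of 16 other heat shock genes 10 were lower and 1 higher, and Bag3, a co-chaperone, had 3 UMIs in neutrophil-like and 64 in monocyte-like cells. In the same comparison Chordc1 had a log2 fold change of -2.90. Of the NF-kB list, 10 of 28 genes were higher and 4 lower. Ptgs2 (4.64), Il1b (4.29) and the chemokine Ccl4 (4.02) had the largest log2 fold changes of the NF-kB list.

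Monocyte-like, Vcan F13a1 macrophage-like and resident macrophage-like cells each differed from Folr2 Cd163 macrophage-like cells in 3 or fewer of the 36 tested genes. All comparisons with Folr2 Cd163 macrophage-like cells share those cells. In monocyte-like cells 3 of the 36 tested genes were higher and 0 lower, beside 3.36% of all genes called, 1.83% higher and 1.53% lower (edgeR). Btg1 stood at 1458 and 1024 against 471 and 583 CPM (log2 fold change 1.30 ± 0.32, adjusted p = 0.0415, edgeR). Btg2 stood at 132 and 186 against 42.8 and 118 CPM (log2 fold change 1.13 ± 0.29, adjusted p = 0.0453, edgeR). Jun stood at 407 and 492 against 215 and 308 CPM (log2 fold change 0.82 ± 0.22, adjusted p = 0.0455, edgeR). For all 3 genes both monocyte-like values lay above both macrophage values. The adjusted p-values were close to the threshold. The count was 1 when cells with neutrophil marker RNA were limited, beside 183 of all 8433 genes tested. It was 7 when cells under 3000 UMIs were left out, beside 423 of all 8543 genes. DESeq2 also called 3 genes, 2 higher and Klf2 lower, beside 217 of all 8844 genes. Of the pathway genes, Il1b (1.62) and the adhesion molecule Icam1 (1.03) were higher among 28 NF-kB genes. The mitochondrial chaperonin gene Hspe1 (-0.90) was lower among 16 heat shock genes, and 0 of 20 early response genes passed.

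In Vcan F13a1 against Folr2 Cd163 macrophage-like cells 0 of the 36 tested genes passed in edgeR, beside 0.17% of all genes called, 0.0113% higher and 0.158% lower. Of the 36 genes, 5 had an unadjusted p under 0.05 in edgeR, beside 531 of all 8844 genes. DESeq2 also called 0 of the 36, beside 7 of all 8844 genes. The largest log2 fold change was that of Dusp2, at 13.8 and 12.5 against 2.06 and 5.39 CPM (1.79 ± 0.46, adjusted p = 0.18, edgeR). Of the pathway genes 0 passed. Fos stood at 452 and 1158 against 336 and 926 CPM, so that the libraries differed by more than the classes.

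In resident against Folr2 Cd163 macrophage-like cells Btg2 was higher and Zfp36l1 lower of the 36 tested genes, beside 9.33% of all genes called, 6.04% higher and 3.29% lower (edgeR). Btg2 stood at 162 and 159 against 42.8 and 118 CPM (log2 fold change 1.09 ± 0.32, adjusted p = 0.0419, edgeR). Zfp36l1 stood at 94.7 and 147 against 229.9 and 228 CPM (log2 fold change -0.88 ± 0.27, adjusted p = 0.0408, edgeR). Klf2 stood at 2459 and 1298 against 1157 and 559 CPM and did not pass (log2 fold change 1.09 ± 0.56, adjusted p = 0.344, edgeR). It was the resident class that had the higher Klf2 level within each library. Of the pathway genes, Gadd45a was higher, at 67.1 and 92.3 against 7.22 and 5.39 CPM (log2 fold change 3.50), as was Socs3, while Gadd45b, Dusp6, Il1b and Ptgs2 were lower. Ptgs2 had 0 UMIs in the resident class in both libraries, against 17 in all in Folr2 Cd163 macrophage-like cells. The 95% counting interval of this ratio, 0 to 1.08, included 1. Gadd45b had 1 UMI in all against 51, a ratio of 0.087 (95% counting interval 0.002 to 0.507). The resident class had 25 and 22 cells, and the count of the 40 genes called was 4 with no filter on low counts, with library totals alone, without cells of other classes that carry C1q RNA and without cells under 3000 UMIs. Of all genes, 1008 of 14634, 879 of 8844, 836 of 8864 and 992 of 8543 passed under these 4 alternatives, in the same order. With library totals alone 6.55% of all genes were higher and 3.39% lower. Cycling markers summed to 383 and 248 CPM in the resident class and to 56.7 and 6.15 CPM in Folr2 Cd163 macrophage-like cells, and their part in these results was not tested.

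Dendritic-like cells had higher levels of Nfkb2, Rel and Nfkb1 and of the phosphatase genes Dusp5 and Dusp2 than Folr2 Cd163 macrophage-like cells, and lower levels of Tnfaip2 and Klf2. Of the 36 tested genes, 9 were higher and 4 lower, beside 18.8% of all genes called, 10.4% higher and 8.44% lower (edgeR). With library totals alone 9 were higher and 5 lower, beside 9.25% and 11.6% of all genes. The median log2 fold change was 0.22 over the 36 genes and 0.00 over all genes tested. The gate list of dendritic-like cells included Ccr7 and Fscn1, and the part of the gate in the differences was not tested. With TMM factors, all 13 differences had the same direction in each library alone. Dusp5 stood at 54.1 and 73.6 CPM in dendritic-like and 0.515 and 10.00 CPM in Folr2 Cd163 macrophage-like cells (log2 fold change 3.94 ± 0.66, adjusted p = 0.00191, edgeR). The macrophage values rested on 1 and 13 UMIs. Dusp2 stood at 18.03 and 22.6 against 2.06 and 5.39 CPM (log2 fold change 2.67 ± 0.48, adjusted p = 0.000349, edgeR).

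The 3 NF-kB subunit genes among the 40 were higher in dendritic-like cells. Of the subunit genes of the pathway list, Relb was also higher, while Rela did not pass (log2 fold change 0.47 ± 0.25, adjusted p = 0.205, edgeR). Nfkb2, which encodes p100 of the alternative pathway, stood at 48.3 and 64.2 against 8.25 and 23.1 CPM (log2 fold change 2.09 ± 0.31, adjusted p = 3.93e-05, edgeR). Rel, which encodes c-Rel, stood at 46.0 and 67.9 against 17.01 and 21.5 CPM (log2 fold change 1.69 ± 0.30, adjusted p = 0.000347, edgeR). Nfkb1, which encodes p105, stood at 100.0 and 81.1 against 26.3 and 50.01 CPM (log2 fold change 1.499 ± 0.29, adjusted p = 0.000775, edgeR). For these 3 genes both dendritic-like values lay above both macrophage values. The target Tnfaip2 was lower, at 3.49 and 18.9 against 29.4 and 72.3 CPM (log2 fold change -2.32 ± 0.38, adjusted p = 0.000122, edgeR). The inhibitor Nfkbia did not pass, at 304 and 317 against 535 and 435 CPM.

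Nr4a2 stood at 2.91 and 35.9 against 0 and 4.62 CPM (log2 fold change 3.17 ± 0.72, adjusted p = 0.00348, edgeR), on 5 and 19 UMIs against 0 and 6, and did not pass in DESeq2 (adjusted p = 0.113). Btg2 stood at 139.6 and 249 against 42.8 and 118 CPM (log2 fold change 1.49), Csrnp1 at 13.4 and 60.4 against 6.70 and 26.2 CPM (1.26) and Ier5 at 341 and 551 against 167 and 285 CPM (1.12). Klf2 was lower, at 177 and 159 against 1157 and 559 CPM (log2 fold change -2.21 ± 0.59, adjusted p = 0.047, edgeR), as were Zfp36l1, at 112 and 125 against 229.9 and 228 CPM (-0.84), and Dusp1 (-0.83). No AP-1 subunit, Egr1 or heat shock member passed, and Hspa8 stood at 1684 and 2998 against 1744 and 2523 CPM. Of the 28 other NF-kB genes 9 were higher and 5 lower. They were led by the signalling adaptor Traf1 (202 and 166 against 2.06 and 6.92 CPM, log2 fold change 5.63), the NF-kB inhibitor Tnip3 (4.91) and the maturation marker Cd83 (23.3 and 66.0 against 0 and 2.31 CPM, on 75 against 3 UMIs, a ratio of 36.0 with an interval of 11.9 to 179). The 5 lower ones were Cxcl2, Ccl3, Ikbke, Ehd1 and Sod2. Of 20 other early response genes 2 were higher and 3 lower, with the GTPase gene Rhob (-2.75), Cebpb (-2.10) and Batf3 (1.62) changed most, and of 16 other heat shock genes 1 (Cacybp) was lower.

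**Figure D3:**
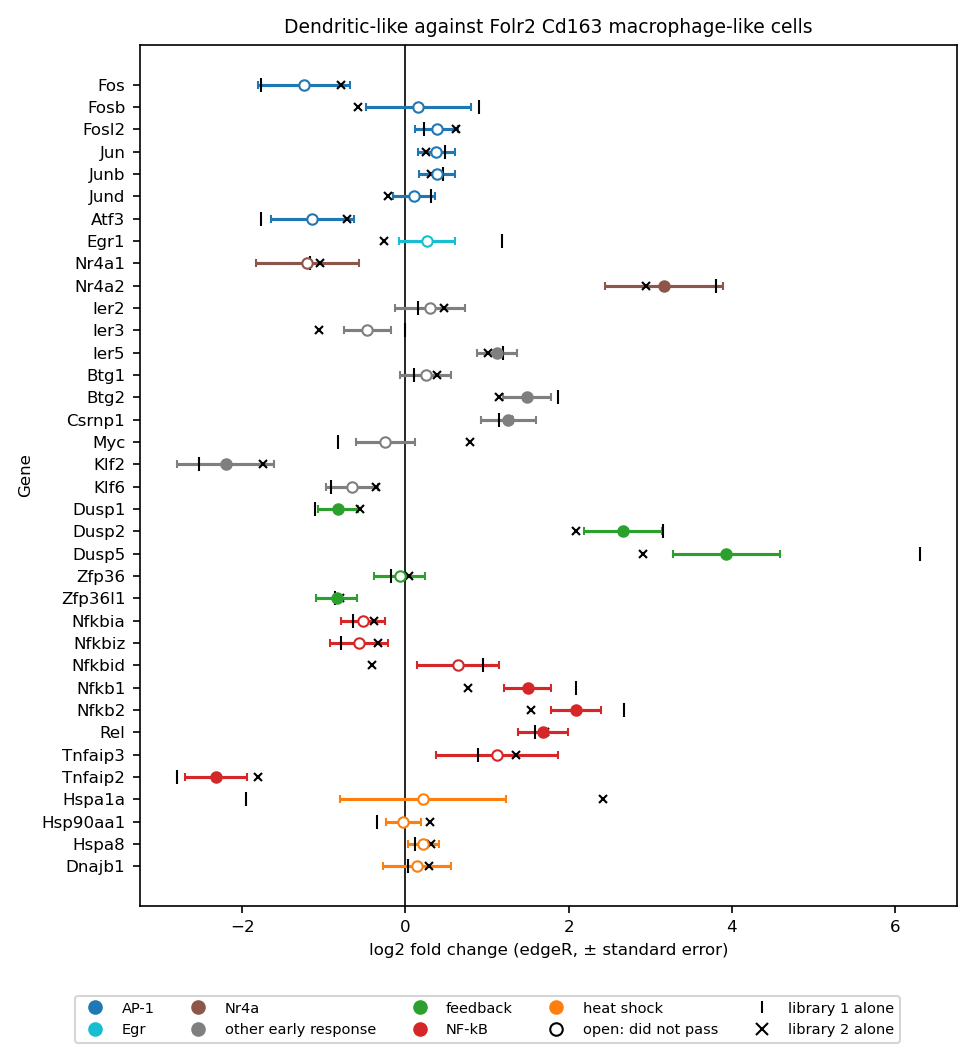
log2 fold change (x axis, edgeR, bars are standard errors) of the 36 tested genes (y axis) between dendritic-like and Folr2 Cd163 macrophage-like cells, coloured by role, with filled points for an adjusted p under 0.05 and black marks for each library alone. Dusp5, Nr4a2, Dusp2, Nfkb2, Rel and Nfkb1 lie to the right of 0 and Tnfaip2 and Klf2 to the left, while AP-1 genes have open points.

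Shares of cells with at least 1 UMI were compared after each cell was thinned to 1000 UMIs, since depth differed between classes. This left out 348 neutrophil-like, 3 monocyte-like, 14 Vcan F13a1 macrophage-like and 1 dendritic-like cells of library 2, and 0 of library 1. Intervals are exact binomial 95% intervals and, like all counting intervals and floors here, cover counting error only. Egr1 was found in 18.1% (interval 10.5% to 28.0%) of neutrophil-like cells in library 1 and 47.5% (interval 44.6% to 50.5%) in library 2. In the other 5 classes the share was between 0% and 5.26%. Junb was found in 85.5% (interval 76.1% to 92.3%) and 93.9% (interval 92.4% to 95.2%) of neutrophil-like cells, and in 28.0% to 56.8% of the cells of the other classes. Hspa8 had the opposite order, with 24.1% (interval 15.4% to 34.7%) and 36.7% (interval 33.9% to 39.6%) in neutrophil-like cells and 68.0% to 95.2% elsewhere. Without thinning, Egr1 was found in 28.9% and 57.6% of neutrophil-like cells and in 7.06% to 37.7% of the others, and Hspa8 in 38.6% and 47.0% and in 99.1% or more.

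Free RNA in droplets gives a background of such shares. S100a8, a neutrophil gene, was found in 9.52% to 61.2% of thinned cells of the other 5 classes. C1qa, a macrophage gene, was found in 2.41% and 2.51% of neutrophil-like cells. The share of Egr1 in neutrophil-like cells lay above that of C1qa there, and that of Hspa8 did too. For Egr1 in the other classes the measure is a neutrophil gene there. S100a8 stood at 0.434% to 1.27% of its neutrophil-like level, and Egr1 in the same proportion would stand at 0.854 to 2.04 CPM in library 1 and 3.69 to 7.84 CPM in library 2. The measured Egr1 levels were 5.67 to 15.8 CPM and 39.9 to 58.7 CPM, above that proportion in each of the 5 classes. The gates cap both measures, since they left out cells of these classes with much neutrophil marker RNA and neutrophil-like cells with much C1q RNA. S100a8 and C1qa therefore cannot decide how much of a level is free RNA, and the part of free RNA was not tested. Fos was found in 24.1% (interval 15.4% to 34.7%) of neutrophil-like cells in library 1 and 70.2% (interval 67.5% to 72.8%) in library 2. In Folr2 Cd163 macrophage-like cells the share was 21.1% (interval 14.7% to 28.8%) and 52.2% (interval 39.8% to 64.4%).

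**Figure D4:**
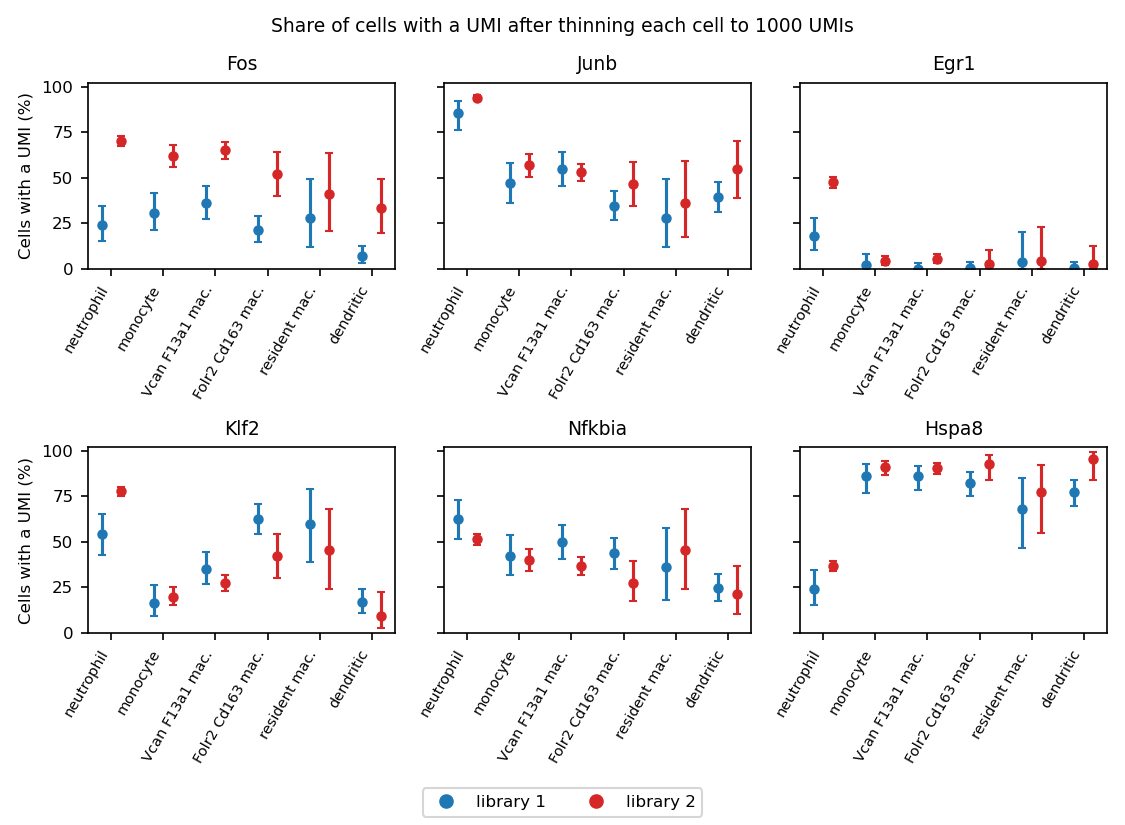
Share of cells with at least 1 UMI of 6 of the genes (y axis, percent, bars are exact 95% binomial intervals) in 6 cell classes (x axis), in library 1 (blue) and library 2 (red), after thinning each cell to 1000 UMIs. Egr1 stands out in neutrophil-like cells at 18.1% and 47.5%, and Fos is higher in library 2 in each class.

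The libraries, which carry the same label, differed in a part of the genes within every class. With 1 library on each side there is no test, and ratios of CPM are given with exact 95% counting intervals for genes with at least 20 UMIs over both libraries. Counts past 2-fold and medians of ratios use plain UMI totals, without TMM factors and with 0.5 UMIs added to each count. Egr1 was at least 2-fold higher in library 2 in 6 of 6 classes, Fos and Atf3 in 5 of 6, Nfkbiz in 5 of 6, and Csrnp1 and Tnfaip2 in 5 of the 5 classes with enough UMIs. For Egr1 and Nfkbiz the interval in resident macrophage-like cells included 1, and Atf3 had 0 UMIs there in library 1. In Folr2 Cd163 macrophage-like cells Egr1 in library 2 was 9.36 times (95% interval 4.92 to 19.6) its level in library 1, from 5.67 and 53.1 CPM. In neutrophil-like cells the Egr1 ratio was 5.30 times (95% interval 3.85 to 7.52). Of the 1503 neutrophil-like cells of library 2, 1477 lay on the side of antibody tag BC3, described below. Fos in library 2 was 7.42 times (95% interval 5.89 to 9.48) its library 1 level in neutrophil-like cells and 2.56 times (95% interval 2.35 to 2.79) in Vcan F13a1 macrophage-like cells. In resident macrophage-like cells, where the Fos ratio was lowest, it was 1.57 times (95% interval 1.25 to 2.00). Atf3 in Vcan F13a1 macrophage-like cells was 7.92 times (95% interval 4.77 to 14.2), and it differed in the other direction only in neutrophil-like cells, at 0.836 times (95% interval 0.380 to 2.18), an interval that includes 1.

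The number of the 40 genes at least 2-fold higher in library 2 was 13 of 35 in neutrophil-like cells, beside 14.2% of all genes with enough UMIs. It was 9 of 36 in monocyte-like cells (11.3% of all genes), 12 of 37 in Vcan F13a1 macrophage-like cells (12.5%, with 2.71% lower) and 9 of 31 in Folr2 Cd163 macrophage-like cells (8.68%). It was 5 of 23 in resident macrophage-like cells (8.67%) and 8 of 32 in dendritic-like cells (10.6%, with 3.13% lower). In ungated cells, which passed no marker gate, it was 15 of 36 (8.28%). At least 2-fold lower were 2 genes in neutrophil-like cells (9.88% of all genes), 1 in monocyte-like cells (2.64%) and 2 in Folr2 Cd163 macrophage-like cells (3.43%). By role, with each value a gene in a class, 14 of 40 AP-1, 8 of 8 Egr and 4 of 7 Nr4a values were at least 2-fold higher in library 2. So were 12 of 51 other early, 3 of 26 feedback, 14 of 40 NF-kB and 1 of 22 heat shock values. At least 2-fold lower were 1 Nr4a, 1 other early, 1 feedback and 2 heat shock values. The 8 Egr values are Egr1 in 6 classes and Egr2 in 2. Counts by role take a gene again in each class of the same 2 libraries and have no share over all genes beside them. The median ratio was 1.58 for AP-1, 3.81 for Egr, 3.26 for Nr4a and 1.53 for other early values. It was 1.28 for feedback, 1.41 for NF-kB and 1.14 for heat shock values. Over all genes with enough UMIs the median log2 ratio was lowest in resident macrophage-like cells (-0.007) and highest in dendritic-like cells (0.235). Hspa8 had ratios from 1.29 to 1.78, with library 2 higher in all 6 classes. Klf2 was lower in library 2 in macrophage-like classes, 0.484 times (95% interval 0.444 to 0.526) its library 1 level in Folr2 Cd163 macrophage-like cells, and higher in neutrophil-like cells, 1.85 times (95% interval 1.64 to 2.08). Nfkbia had ratios from 0.644 to 1.23.

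Other measures moved with the library as well. Platelet markers summed to 2612 CPM in Folr2 Cd163 macrophage-like cells of library 1 and 429 CPM in library 2, with 3 of the 4 markers at 0 in each, and to 2168 and 204 CPM in Vcan F13a1 macrophage-like cells. Neutrophil markers in the 5 other classes were higher in library 1, at 1216 to 2632 CPM, than in library 2 within each class, at 822 to 1900 CPM. Markers of the gates moved too. In Folr2 Cd163 macrophage-like cells the Folr2 Cd163 list summed to 20753 CPM in library 1 and 8352 CPM in library 2, the monocyte list to 4185 and 8421 CPM, and Ly6c2 stood at 30.9 and 253 CPM. In Vcan F13a1 macrophage-like cells the Folr2 Cd163 list summed to 10928 and 3886 CPM. A different make-up of cells within a class cannot be told apart from a different level per cell. The part of these differences in the results was not tested, and handling, animals and sequencing cannot be told apart from the library.

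**Figure D5:**
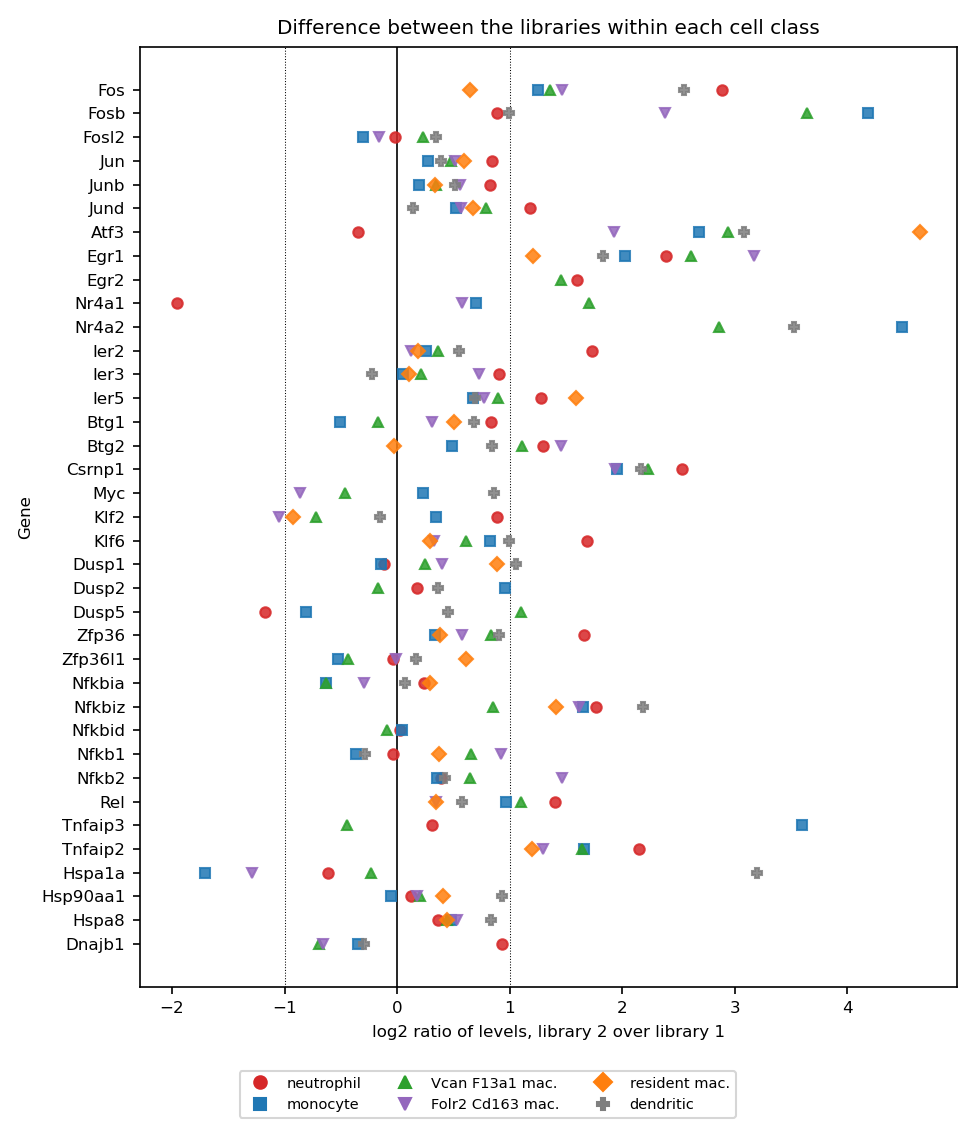
log2 ratio of the level in library 2 over library 1 (x axis, dotted lines at 2-fold) of each gene with at least 20 UMIs (y axis) in 6 cell classes (symbols). Egr1, Csrnp1, Tnfaip2 and Fos lie to the right in each class shown, and Hspa8 lies between 0 and the 2-fold line, at ratios from 1.29 to 1.78.

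Library 2 also held antibody tag reads for BC2 and BC3, whose meaning is not stated in the labels. By its stronger tag, BC3 took 1477 of the neutrophil-like cells and BC2 took 26, whereas 69 of 69 Folr2 Cd163 and 423 of 432 Vcan F13a1 macrophage-like cells lay on the BC2 side. In neutrophil-like cells 30 of the 40 genes were higher on the BC3 side, 17 of them with counting intervals that did not overlap. On that side 9 were lower, 1 of them with such intervals. These counts were not made over all genes, so they do not set the 40 genes apart. Junb stood at 1498 CPM on the BC2 side and 4165 CPM on the BC3 side, Egr1 at 187 and 878 CPM, and Klf2 at 832 and 2424 CPM. Hspa8 went the other way, at 2528 and 511 CPM, so that the 26 cells of the BC2 side had a Hspa8 level close to that of the other classes. S100a8 stood at 46110.3 CPM on the BC2 side and 76469 CPM on the BC3 side. With only BC2 cells of library 2, 20 of the 36 tested genes differed between neutrophil-like and Folr2 Cd163 macrophage-like cells in place of 29, beside 16.4% of all genes in place of 54.5%. Between neutrophil-like and monocyte-like cells it was 16 in place of 28, all 16 of them higher, beside 7.93% of all genes in place of 49.3%. Hspa8 did not pass in either comparison there, with log2 fold changes of -0.62 and -0.90. In neutrophil-like cells of library 1 Junb stood at 2292, Egr1 at 160.1 and Klf2 at 1277 CPM. In library 2 the neutrophil-like class can hardly be told apart from the BC3 side, nor these macrophage-like classes from the BC2 side. The part of the tag in the differences between classes and between libraries was not tested.

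Of the 40 genes, 8 overlap another listed gene that also holds UMIs, and reads of such pairs cannot be told apart where the counting did not use strand, which is not stated. Junb (31319 UMIs) overlaps Prdx2 on the opposite strand (7192 UMIs), Dusp1 (14017 UMIs) overlaps Ergic1 (556 UMIs) and Csrnp1 (1411 UMIs) overlaps Cx3cr1 on the same strand (140 UMIs). Hspa1a and Hspa1b are near-identical neighbours on chromosome 17, so that reads could be split or lost between them, and their totals, 177 and 246 UMIs for Hspa1a and 7 and 19 for Hspa1b in libraries 1 and 2, are uncertain.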

How the data were processed

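The authors deposited, for each of the 2 libraries, a matrix of UMI counts per gene and cell barcode, unscaled whole numbers. Per the submitters' processing notes, Cell Ranger 3.0.1 and mm10 were used; the sources used here give neither annotation release nor strand setting. Barcodes below 300 genes or above 10% mitochondrial UMIs (25 and 61) and the cells with the highest doublet scores (10 and 65, at 0.8% per 1000 cells) were removed with scanpy 1.11.5.

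Classes were gated on marker UMIs per 10000: at least 200 from neutrophil markers for neutrophil-like cells (100 to 200 were left out), at least 10 from C1q genes for macrophages, then at least 5 from Folr2, Cd163 and related genes, or at least 30 from Vcan, F13a1 and related genes, which with Ly6c2 at 2 and low C1q also mark monocyte-like cells. Resident, dendritic, B and T or NK-like gates needed at least 20, 6, 10 and 5. The marker lists name the classes; their thresholds were chosen after the data were seen. The members and lists were chosen with earlier results of these data known. UMIs were summed per class and library and tested with edgeR 4.0.16 in R 4.3.3 (quasi-likelihood, TMM, filterByExpr), with the library as a block over 12 sums (5 residual degrees of freedom, 8844 genes), Benjamini-Hochberg adjustment and calls at 0.05. A standard error is the absolute log2 fold change divided by the root of F. The library pairs the classes, since each class comes from the same 2 libraries. Deviations from the class means correlated in all 15 class pairs (r from 0.139 to 0.645). In library 2 neutrophil-like cells and most macrophage-like cells lay on different tag sides, which the block does not take out. Every gene that passed is named, with values in both libraries for up to 12 per comparison. Up to 3 pathway genes per list are named by size of change. Other pathway genes are named where a count was 5 or fewer, as were Rela and Relb, chosen after their values were seen. Tested on simulated data for neutrophil-like against Folr2 Cd163 macrophage-like cells (8394 genes), edgeR recovered 80.5% of 4-fold and 33.3% of 2-fold changes, with 14 false calls beside 120 true ones. Recovery was lowest for resident against Folr2 Cd163 macrophage-like cells, at 64.2% of 4-fold and 19.8% of 2-fold changes. The simulated classes were equal apart from a small set of changed genes, unlike the measured neutrophil-like cells and macrophages. DESeq2 1.42.0, other scalings, filters, gates and clusters (leidenalg 0.10.2) were tried as alternatives.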

Additional observations from a re-analysis of the deposited data

Results flagged for a closer look

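Nr4a1 and Hspa1a were singled out because the libraries differed in opposite directions in different classes, at least 2-fold each way and with counting intervals of the ratio that did not include 1. The difference between the classes was not tested, since each class has 1 library on each side. Nr4a1, an orphan nuclear receptor, was higher in library 2 in Vcan F13a1 macrophage-like cells (log2 ratio 1.71, on 7 and 139 UMIs) and lower in neutrophil-like cells (log2 ratio -1.96, on 7 and 18 UMIs). Hspa1a, an inducible Hsp70, was higher in library 2 in dendritic-like cells (log2 ratio 3.20, on 11 and 32 UMIs) and lower in monocyte-like cells (log2 ratio -1.71, on 12 and 15 UMIs). Hspa1a shares nearly all its sequence with Hspa1b, and its values are uncertain.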

How the results depend on the processing

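Counts of the 36 genes called stayed within 1.5 times the reported count except as follows. Without the library as a block, a fit that ignores the pairing, 0 genes passed for monocyte-like, 0 for resident and 5 for dendritic-like against Folr2 Cd163 macrophage-like cells, in place of 3, 2 and 13. Of all genes 0.294%, 4.64% and 7.69% passed there, in place of 3.36%, 9.33% and 18.8%. The block changed other counts less, to 28 in place of 29 and 23 in place of 28 for the neutrophil-like comparisons. Of all genes 41.9% and 33.3% passed there. With no filter on low counts 1 gene passed for Vcan F13a1 and 4 for resident macrophage-like cells, beside 87 and 1008 of all 14634 genes. Resident cells also gave 4 without C1q carry-over and 1 with DESeq2, beside 836 of 8864 and 709 of 8844 genes. The BC2 side alone gave 16 for neutrophil-like against monocyte-like cells, beside 7.93% of all genes. Of alternatives added after the data were seen, limiting neutrophil marker RNA left 1 gene for monocyte-like cells, beside 183 of all 8433 genes. Leaving out cells under 3000 UMIs gave 7 for monocyte-like and 4 for resident cells, beside 423 and 992 of all 8543 genes. Library totals without TMM gave 4 for resident cells, beside 879 of all 8844 genes. The causes were not tested.

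The median log2 difference of the 36 genes in a single library, when the other was left out, ran from 1.87 to 2.55 for neutrophil-like against Folr2 Cd163 macrophage-like cells, from 0.23 to 0.26 for Vcan F13a1 cells (0.31 with both), and from 1.57 to 2.14 for neutrophil-like against monocyte-like cells. For resident cells it ran from -0.19 to 0.10, with the reported value -0.12 reversed without library 2. These single-library medians are values with no test.

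Of 936 tested results for single genes under an alternative, 873 kept direction and call, 62 lost the call and 1 reversed. Of 150 single-library values, which use TMM factors and have no test, 148 kept their direction and 2 reversed. Atf3 in neutrophil-like against monocyte-like cells was -1.72 without library 1 and 0.95 without library 2. Nr4a2 was -2.58 without library 1, 3.58 without library 2 and 0.40 on the BC2 side. The unthinned mean share of neutrophil-like cells with Hspa8 was 42.8%, against 30.4% thinned. Classes from clusters gave a value for neutrophil-like against monocyte-like cells alone. Resident cells gave none on the BC2 side, without cycling cells or with neutrophil marker RNA limited, and neutrophil-like cells none over 3000 UMIs. Depth limits calls: Egr2, Egr3, Nr4a3 and Hspa1b had too few UMIs to be tested.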

Other observations

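Cells outside the compared classes also carried the genes. Ungated cells, which passed no marker gate, numbered 457 in library 1 and 253 in library 2. In them Junb stood at 619 and 895 CPM, Egr1 at 6.94 and 47.5 CPM and Fos at 410.1 and 1309.5 CPM. Of 36 genes with enough UMIs, 15 were at least 2-fold higher in library 2 and 0 at least 2-fold lower in ungated cells. Of all 8963 genes with enough UMIs there, 8.28% were higher and 3.29% lower by the same measure. B-like cells, 25 and 13 in number, had the AP-1 subunit Jund at 772 and 755 CPM, above its level in each of the macrophage-like classes and below library 2 neutrophil-like cells. T or NK-like cells were 3 in library 1 and 52 in library 2, where Dusp2, a phosphatase of activated lymphocytes, stood at 93.1 CPM, above its level in each of the 6 compared classes.

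Within Vcan F13a1 macrophage-like cells, thinned to 5000 UMIs, Spearman correlations between pairs of the genes over cells had a median of 0.049 in library 1 (116 cells, 13 genes) and 0.044 in library 2 (393 cells, 16 genes), and none exceeded 0.324. The cells of a library share its depth and free RNA, the counts are sparse, and correlations of this size are a description.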
